A study of Mus musculus with 2 samples.

Results

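Vip interneurons are a class of inhibitory neurons of the cerebral cortex that make the vasoactive intestinal peptide. Here they were taken as the 118 nuclei of 17501 that passed a rule on 5 genes or gene pairs, 74 of 8914 barcodes in library 1 and 44 of 8587 in library 2. The rule asked for at most 5% of counts in mitochondrial genes and at least 2 unique molecular identifiers (UMIs, each standing for 1 captured RNA molecule) of Gad1 and Gad2 together. It further asked for at most 1 UMI of Slc17a7, at most 2 of Sst, at least 2 of Adarb2 and at least 1 of Vip. The levels of these genes therefore chose the members and are given as a description only. Names of classes stand for nuclei that pass such rules.

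The nuclei came from frozen cerebral cortex of untreated wild-type C57BL/6 mice on a normal diet and were profiled with the 10x Genomics Chromium droplet method. The study set out to follow transcripts of the blood-brain barrier over cell types in natural ageing. It had 2 samples, mice of 18 months and mice of 2 months, each a pool of 3 animals, and the series text widens the ages to 18 to 22 and 2 to 3 months. Both samples stand in 1 matrix with 2 barcode suffixes, called library 1 and library 2, and the labels do not say which suffix holds which age, so ages were not compared. Library totals were 58108297 and 60547146 UMIs, with medians of 5992 and 6450 per barcode. There are no replicates and no tests, and every interval is an exact 95% interval for counting error only.

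Most Vip interneurons of the cortex arise in the caudal ganglionic eminence (CGE) of the embryo, as do the neurons marked by Lamp5 and Ndnf, whereas Sst and Pvalb interneurons arise in the medial ganglionic eminence (MGE). Vip interneurons contact other inhibitory neurons to a large extent, above all those with Sst, and so release pyramidal cells from inhibition when they fire. They respond to acetylcholine, serotonin and noradrenaline, and their subtypes differ in peptides and markers such as Cck, Calb2, Crh, Tac2 and Chat.

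The members made up 0.862% (0.677 to 1.08) of the nuclei within the mitochondrial limit in library 1 and 0.532% (0.387 to 0.713) in library 2. They were 6.79% and 5.09% of the nuclei with at least 2 Gad1 and Gad2 UMIs and at most 1 Slc17a7 UMI. Of the nuclei that passed every limit except the last, on Vip, 21.3% and 15.7% were members. All 3 shares were higher in library 1. They rest on limits in UMIs and so on depth, and the makeup of the tissue and the recovery of nuclei cannot be told apart here. The members held a median of 6144.5 UMIs and 2533 genes in library 1 (range 2346 to 14633 UMIs) and 5737 UMIs and 2334.5 genes in library 2 (2938 to 16362). No member had over 20000 UMIs. The libraries share 19 barcode sequences, and 0 of them are members.

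**Figure D1:**
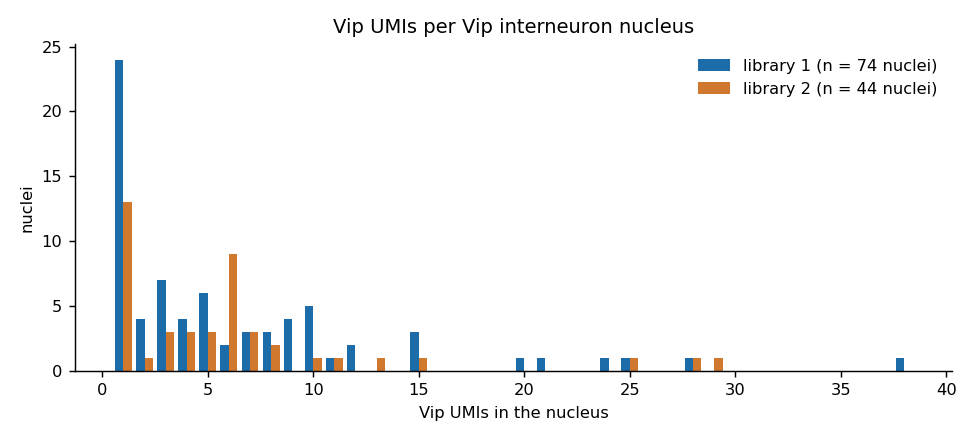
Vip UMIs per nucleus (x axis) against the number of Vip interneuron nuclei (y axis) in library 1 (blue, 74 nuclei) and library 2 (orange, 44 nuclei). The tallest bar in each library is at the lower limit of 1 UMI, with 24 and 13 nuclei, and the highest counts are 38 and 29 UMIs.

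Vip counts peaked at the lower limit and were spread widely above it. A single Vip UMI was held by 24 of 74 members in library 1 (32.4%) and 13 of 44 in library 2 (29.5%), exactly 2 UMIs by 4 and 1, and at least 3 by 46 and 30 (62.2% and 68.2%). The median was 4 and 5 UMIs, and 17 and 7 members had 10 or more, as the plot of Vip UMIs per nucleus shows. A Vip UMI was also found in other classes: 5.50% of excitatory nuclei in library 1 and 4.04% in library 2 had a Vip UMI, at median depths of 8871 and 9610 UMIs. Among GABA nuclei with at most 1 Adarb2 UMI the shares were 4.24% and 4.34%. At least 3 Vip UMIs were seen in 0 nuclei of these classes in either library, which allows up to 0.181% and 0.311% of excitatory nuclei and 0.410% and 0.521% of the GABA nuclei. Adarb2, an RNA-editing-enzyme homologue and a broad marker of CGE interneurons, had a median of 63.5 and 67.5 UMIs per member. It too was found in other nuclei, with 2 or more UMIs in 15.4% and 15.3% of excitatory nuclei.

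The limits of the rule cut through nuclei unevenly. Over both libraries, 37 members had exactly 1 Vip UMI while 510 nuclei met every other limit with 0. The members at 1 had 101 CPM of Prox1 and 439 CPM of Reln, and the nuclei at 0 had 71.3 and 774 CPM; CPM are counts scaled to the sum of the class, in the usual unit of counts per 1000000. Only 2 members sat at the Adarb2 limit of 2, with 17 nuclei just outside at 1 and 35 at 0. At the Gad1 and Gad2 limit, 29 members had 2 UMIs, 42 nuclei had 1 and 59 had 0. At the Slc17a7 limit, 54 members had 1 UMI and 27 nuclei had 2. At the Sst limit, 3 members had 2 UMIs and 0 nuclei had 3, and 0 nuclei failed only the mitochondrial limit.

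Among the markers of the class that the rule did not use, Prox1, Npas1, Nr2f2, Dlx6os1, Erbb4, Htr3a, Calb2 and Cck had UMIs in the members of both libraries. Sp8, a CGE transcription factor, had 2 UMIs in library 1 and 0 in library 2, and Crispld2 had 0 UMIs in the whole matrix. The summed level of 7 excitatory markers other than Slc17a7 was 318 and 408 CPM, against 1336 and 1309 CPM in excitatory nuclei, and 0 of the 7 were at 0. The 7 markers of striatal projection neurons summed to 2192 and 2169 CPM, nearly all from the phosphodiesterase Pde10a (2068 and 2027 CPM), against 1634 and 1476 CPM in excitatory nuclei, 1698 and 1750 in Sst nuclei, 1468 and 1531 in Pvalb nuclei, and 2303 and 1801 in Lamp5 and Ndnf nuclei. None of the 7 was at 0, and 0 of the 2 that could be compared with the interneuron classes were called. Among markers of non-neuronal cells, 6 of astrocytes summed to 378 and 630 CPM and 8 of oligodendrocytes and precursors to 374 and 443. Both sums were above that of the excitatory markers in the members. The sums of 5 markers of microglia, 32.0 and 79.6 CPM, and of 11 of vessel-wall cells and fibroblasts, 56.0 and 118, were below it. These 4 non-neuronal sums were higher in library 2. Among the vessel-wall markers 6 of 11 were at 0 in library 1 and 2 of 11 in library 2.

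The members were set against 3 other interneuron classes chosen by like rules: Lamp5 and Ndnf nuclei (57 in library 1 and 43 in library 2), Sst nuclei (121 and 92) and Pvalb nuclei (73 and 29). UMIs were summed per class and library. A gene was compared where the 2 classes together held at least 20 UMIs in each library, and called where the ratio of CPM plus 1 was at least 2 in the same direction in both libraries. Folds in the text are ratios of the CPM themselves, library 1 before library 2. The genes of the rules are left out of all counts, and 1 pooled sample stands behind each value. A gene with few UMIs enters only where 1 class is high, so counts over a list describe the genes that entered and not the list as a whole. Where 1 class alone brings such a gene to 20 UMIs, it can only be called higher in that class. Its call is then a description. The comparison classes were deeper, with medians of 6617 to 9029 UMIs per nucleus.

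Prox1, which CGE interneurons need to mature, stood at 212 CPM (174 to 256) in library 1 and 194 CPM (146 to 252) in library 2. Its level was 111 and 95.3 CPM in Lamp5 and Ndnf nuclei, 4.02 and 10.2 in Sst nuclei, 17.6 and 18.4 in Pvalb nuclei, and 14.3 and 15.1 in excitatory nuclei. The members were the highest of these classes in both libraries, by 52.7- and 19.1-fold over Sst nuclei, and over Pvalb nuclei by ratios with intervals of 6.62 to 24.1 and 3.88 to 39.9. Over Lamp5 and Ndnf nuclei the ratio was 1.90 (1.37 to 2.67) and 2.03 (1.28 to 3.30), which was not called. After each nucleus was thinned to 3000 UMIs, 43.1% and 44.2% of members had a Prox1 UMI. Npas3, a bHLH-PAS factor of interneuron and neural development, reached 2552 and 2238 CPM, 2.63- and 2.60-fold above the 970 and 861 CPM of Lamp5 and Ndnf nuclei. Of the 14 CGE-lineage and forebrain GABA factors compared with Lamp5 and Ndnf nuclei, Npas3 was the 1 higher and Tox2 and Tox3 were lower, with a median log2 ratio of -0.10 and -0.15. Over all genes compared with that class, 2.53% were higher and 1.85% lower, with a median of -0.05 and -0.03.

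Against Sst nuclei, 171 of 6025 genes were higher in the members (2.84%) and 189 lower (3.14%). Of 25 listed CGE-lineage and forebrain GABA factors, 18 could be compared, of which 7 were higher and 4 lower. The higher ones were Prox1, Npas1, Zbtb16, Dlx1, Dlx6os1, Nfib and Nfix, and the median log2 ratio of the list was 0.93 and 0.67, beside -0.04 and -0.01 over all genes compared. Npas1, a bHLH-PAS factor of CGE interneurons, had 112 CPM (56 UMIs) in library 1 and 41.5 CPM (12 UMIs) in library 2, against 35.2 and 17.8 CPM in Sst nuclei. Dlx6os1, a noncoding RNA of the Dlx5 and Dlx6 locus, had 730 and 595 CPM against 140 and 123, and whether its counting used the strand is not given in the sources used here. Zbtb16, a zinc finger factor, had 654 and 778 CPM against 139 and 173. Tox, Tox2 and Tox3, HMG-box factors, were among those lower than in Sst nuclei.

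The MGE genes went the other way: of 14 compared with Sst nuclei 8 were lower and 0 higher, with a median log2 ratio of -1.56 and -1.82. Sox6, an SRY-box factor that MGE interneurons need for positioning and maturation, had 38.0 and 76.1 CPM in the members and 1064 and 989 CPM in Sst nuclei. In library 2 a single member held 15 of the 22 Sox6 UMIs. Lhx6, the LIM-homeobox factor that sets MGE identity, had 4 UMIs in library 1 and 0 in library 2, against 72 and 47 UMIs in Sst nuclei (72.4 and 59.7 CPM). That is 9.05-fold lower in library 1 and at least 5.75-fold lower in library 2, counting 3 UMIs in place of 0. Satb1, a chromatin organiser of MGE neurons, had 80.0 and 48.4 CPM against 490 and 360. Grin3a, an NMDA receptor subunit, Kcnc2, a fast potassium channel, and Cntnap5a, Nxph1 and Moxd1 made up the rest of the 8.

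Against Pvalb nuclei, 161 of 3904 genes were higher (4.12%) and 152 lower (3.89%). The CGE list had 6 higher and 2 lower of 11, with a median log2 ratio of 1.47 and 1.86, and the MGE list 2 higher and 6 lower of 10, with -1.54 and -1.61; all genes compared had -0.04 and -0.05. Sox6 again separated the classes, with 864 and 876 CPM in Pvalb nuclei, and Satb1 had 304 and 235. Elfn1 and Grin3a were higher in the members. Elfn1, a postsynaptic adhesion protein best known from Sst interneurons, had 116 and 104 CPM in the members, 10.3 and 4.61 in Pvalb nuclei, 11.7 and 19.7 in Lamp5 and Ndnf nuclei, and 228 and 266 in Sst nuclei. The Pvalb class rests on a single UMI of Pvalb, which 3.56% and 3.11% of excitatory nuclei also had. With at least 2 Pvalb UMIs, a limit chosen after the values were seen, 208 of 2703 genes were higher in the members (7.70%) and 90 lower (3.33%).

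**Figure D2:**
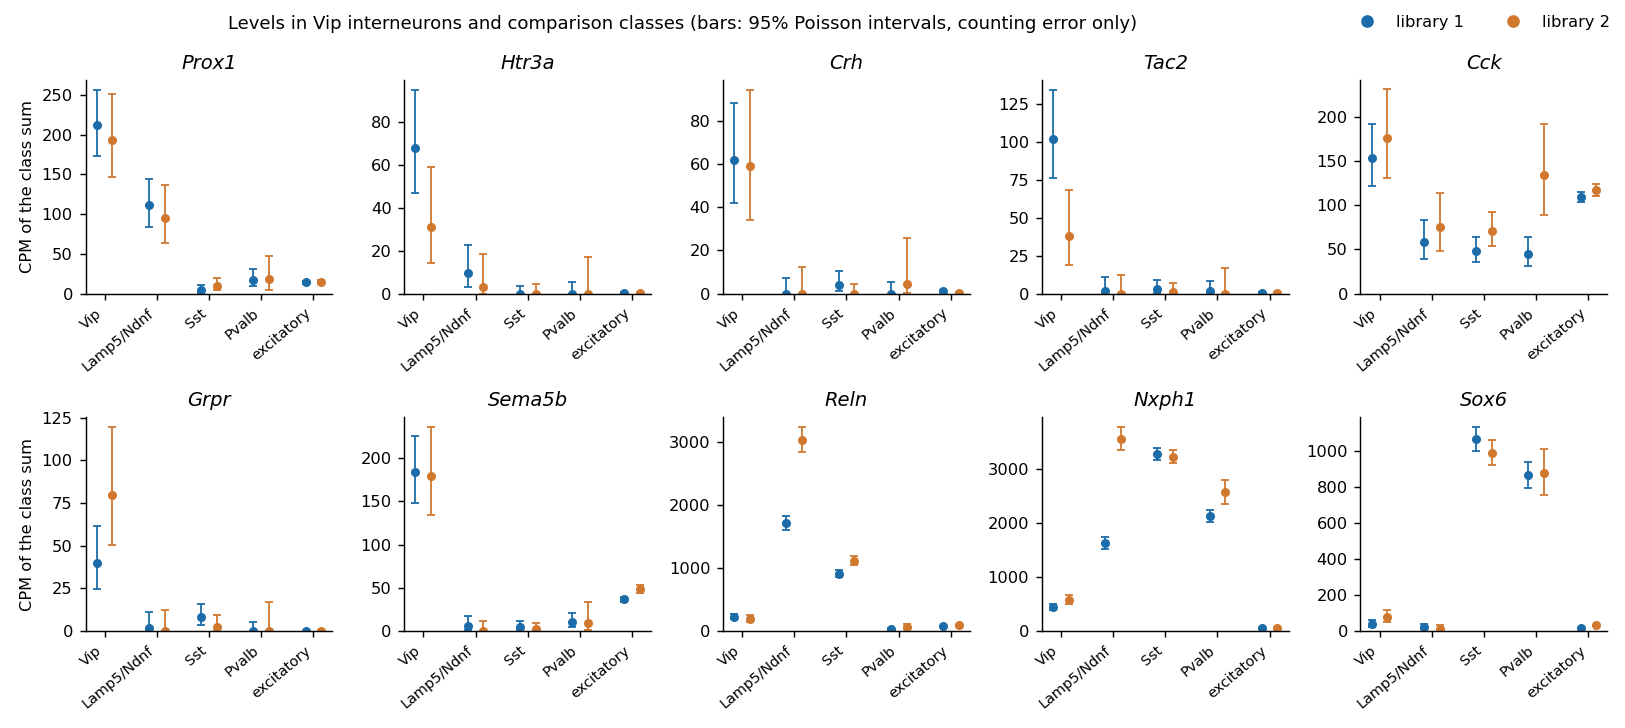
CPM of 10 genes (y axes, linear, each with its own range) in Vip interneurons, the 3 other interneuron classes and excitatory nuclei (x axis) in library 1 (blue) and library 2 (orange), with bars for exact 95% Poisson intervals of counting error. Prox1, Htr3a, Crh, Tac2, Grpr and Sema5b are highest in Vip interneurons in both libraries. Reln is lower there than in Lamp5 and Ndnf nuclei, Nxph1 than in the 3 other interneuron classes, and Sox6 than in Sst and Pvalb nuclei.

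The peptides and markers that divide Vip interneurons into subtypes were present at low counts. For Crh, Tac2, Htr3a and Chat the members held most UMIs of the 4 interneuron classes. Of 49 listed subtype genes in the matrix, 13, 12 and 11 could be compared with Lamp5 and Ndnf, Sst and Pvalb nuclei. Of these 3, 5 and 3 were higher and 1, 2 and 0 lower. Over all genes 2.53%, 2.84% and 4.12% were higher and 1.85%, 3.14% and 3.89% lower. The median log2 ratios were -0.08 and -0.09, 1.26 and 0.98, and 1.07 and 0.45. Over all genes they were -0.05 and -0.03, -0.04 and -0.01, and -0.04 and -0.05. Crh, corticotropin-releasing hormone, had 62.0 CPM (31 UMIs in 19 nuclei) in library 1 and 58.8 CPM (17 UMIs in 10 nuclei) in library 2. In Lamp5 and Ndnf nuclei there were 0 UMIs in both libraries, so the members were at least 10.6- and 5.96-fold higher. Sst nuclei had 4 and 0 UMIs, a ratio of 15.4 (5.45 to 60.1) in library 1 and of at least 15.4-fold in library 2. Pvalb nuclei had 0 and 1 UMIs, at least 14.1-fold in library 1 and a ratio of 12.8 (2.00 to 533) in library 2.

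Tac2, the precursor of neurokinin B, had 102 CPM (51 UMIs in 15 nuclei) in library 1 and 38.1 CPM (11 UMIs in 9 nuclei) in library 2, with a highest count of 9 and 2 UMIs in 1 nucleus. Lamp5 and Ndnf nuclei had 1 and 0 UMIs, Sst nuclei 3 and 1, and Pvalb nuclei 1 and 0. The level in library 1 was the higher one. A UMI was found in 20.3% and 20.5% of members, and in 15.3% (7.88 to 25.7) and 6.98% (1.46 to 19.1) after thinning to 3000 UMIs. Htr3a, the serotonin-gated ion channel subunit that marks CGE interneurons, had 68.0 CPM (34 UMIs in 18 nuclei) and 31.1 CPM (9 UMIs in 7 nuclei). It had 0 UMIs in Sst and Pvalb nuclei of both libraries, at least 22.5- and 8.17-fold lower than in the members for Sst nuclei and at least 15.5- and 2.25-fold for Pvalb nuclei. In Lamp5 and Ndnf nuclei there were 5 and 1 Htr3a UMIs, ratios of 6.96 (2.71 to 22.8) and 9.47 (1.31 to 415). Htr3a, Crh and Tac2 had under 20 UMIs in library 2 in these pairs, so they enter no count of called genes.

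Calb2, calretinin, a calcium-binding protein of bipolar Vip interneurons, had 24.0 CPM (12 UMIs in 6 nuclei) and 27.7 CPM (8 UMIs in 5 nuclei). Chat, choline acetyltransferase, had 2 UMIs in 2 nuclei of library 1 and 11 UMIs in 4 nuclei of library 2, with 8 of the 11 in 1 nucleus. The other 3 interneuron classes had 0 Chat UMIs in both libraries. Slc5a7, the choline transporter, had 9 and 5 UMIs in 6 and 5 members. Penk, proenkephalin, had 24.0 and 76.1 CPM, and Pnoc, pronociceptin, 42.0 and 17.3 CPM, so their order between the libraries was opposite. Cort, cortistatin, had 0 UMIs in either library and Pdyn, prodynorphin, had 0 and 1.

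Of 15 genes of neuropeptides and processing enzymes compared with Sst nuclei, Cck, cholecystokinin, was the 1 higher and Pdyn the 1 lower. Over all genes 2.84% were higher and 3.14% lower than in Sst nuclei. Cck was also higher than in Lamp5 and Ndnf nuclei. It had 154 CPM (77 UMIs in 34 nuclei) and 176 CPM (51 UMIs in 26 nuclei). Lamp5 and Ndnf nuclei had 58.6 and 75.6 CPM, Sst nuclei 48.3 and 71.2, and Pvalb nuclei 45.5 and 134. The folds were 2.63 and 2.33 over Lamp5 and Ndnf nuclei, and 3.19 and 2.48 over Sst nuclei. Over Pvalb nuclei they were 3.39 and 1.32, which was not called. Excitatory nuclei also had Cck, at 109 and 117 CPM. Pcsk1, a prohormone convertase, was higher than in Lamp5 and Ndnf nuclei (78.0 and 55.4 CPM against 31.3 and 13.1) and, with Pcsk2 and Scg3, higher than in Pvalb nuclei. Npy, neuropeptide Y, had 84.0 and 62.3 CPM and a UMI in 16.2% and 22.7% of members, where 43.0% and 45.7% of Sst nuclei had one. Its level stood against 151 and 200 in Lamp5 and Ndnf nuclei, and was not called.

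The 250 bases upstream of the transcription start are shown for Vip, Cck and Tac2 as peptide genes of the class, and for Sst as the peptide gene of the MGE class it is compared with (RefSeq, GRCm38.p6, each read 5′ to 3′ along the gene's strand). Capitals mark TGACG or its reverse complement CGTCA, the core of the cAMP response element, whose full form is TGACGTCA. Crh, Penk, Htr3a and Calb2 were not matched to a window.
Vip, chr10:5638968-5639217 (+): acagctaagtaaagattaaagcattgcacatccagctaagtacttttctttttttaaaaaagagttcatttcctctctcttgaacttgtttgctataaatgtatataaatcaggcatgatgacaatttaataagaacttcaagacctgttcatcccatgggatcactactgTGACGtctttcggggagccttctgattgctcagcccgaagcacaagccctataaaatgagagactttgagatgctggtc
Cck, chr9:121495695-121495944 (-): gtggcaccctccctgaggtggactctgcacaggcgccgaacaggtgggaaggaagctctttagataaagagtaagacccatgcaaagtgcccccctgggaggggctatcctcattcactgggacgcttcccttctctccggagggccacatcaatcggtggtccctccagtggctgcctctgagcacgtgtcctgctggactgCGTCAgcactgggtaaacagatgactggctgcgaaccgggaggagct
Tac2, chr10:127724228-127724477 (+): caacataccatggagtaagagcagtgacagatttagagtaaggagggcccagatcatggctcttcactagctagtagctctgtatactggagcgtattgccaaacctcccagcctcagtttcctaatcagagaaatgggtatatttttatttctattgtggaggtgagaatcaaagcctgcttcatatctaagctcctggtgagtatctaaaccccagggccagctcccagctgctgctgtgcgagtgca
Sst, chr16:23890845-23891094 (-): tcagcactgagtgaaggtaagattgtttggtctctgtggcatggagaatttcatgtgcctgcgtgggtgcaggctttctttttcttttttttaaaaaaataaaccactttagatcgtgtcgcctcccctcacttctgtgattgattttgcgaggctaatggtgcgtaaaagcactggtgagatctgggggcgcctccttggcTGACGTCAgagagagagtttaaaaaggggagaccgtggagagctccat
The Vip window holds 1 copy of TGACG, 79 bases before the start, and the Cck window 1 copy in reverse, 47 bases before it. The Sst window holds the full form, as overlapping copies that begin 48 and 45 bases before the start, and the Tac2 and Npy windows hold none. Of 32851 such windows, 17.8% hold TGACG on either strand and 1.55% hold TGACGTCA. The motif occurs in Vip, whose counts chose the members, and in Sst, which the rule kept low, and a match is a description of letters only. The Vip gene spans chr10:5639218-5647617 on the plus strand (mm10, GENCODE vM21).

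**Figure D3:**
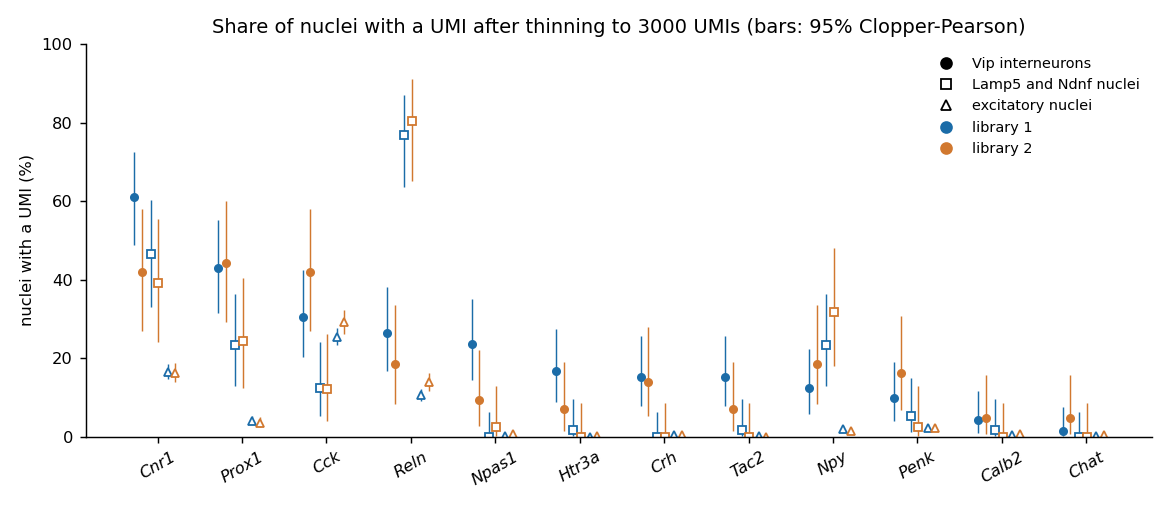
Share of nuclei with at least 1 UMI (y axis, %) of 12 genes (x axis) after thinning each nucleus to 3000 UMIs, in Vip interneurons (filled circles), Lamp5 and Ndnf nuclei (squares) and excitatory nuclei (triangles), library 1 in blue and library 2 in orange, with exact 95% Clopper-Pearson intervals. Htr3a, Crh and Tac2 lie between 6.98% and 16.7% in Vip interneurons and below 1% in excitatory nuclei, whereas Cck overlaps the excitatory background.

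At an equal depth of 3000 UMIs, which 72 of 74 and 43 of 44 members reached, 15.3% and 14.0% of members had a Crh UMI, against 0.320% and 0.325% of excitatory nuclei. Htr3a was found in 16.7% (8.92 to 27.3) and 6.98% (1.46 to 19.1), against 0 nuclei in library 1 and 0.108% in library 2 among excitatory nuclei. Without thinning the Htr3a shares were 24.3% and 15.9%, and those of Crh 25.7% and 22.7%. Cck was found in 30.6% and 41.9% of thinned members and in 25.5% and 29.1% of thinned excitatory nuclei. The Cck share in library 1 stood close to this background. Calb2 was found in 4.17% and 4.65%, and Chat in 1.39% and 4.65%. The intervals of the libraries overlapped for each of these genes, as the plot of shares after thinning shows.

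Crh and Tac2 were often found in the same nuclei. Of the 29 members with a Crh UMI, 15 also had a Tac2 UMI, and of the 89 without one, 9 had. The pattern was in both libraries: 9 of 19 against 6 of 55 in library 1, and 6 of 10 against 3 of 34 in library 2. Among members with at least 3 Vip UMIs the counts were 9 of 16 against 3 of 30, and 5 of 8 against 2 of 22. Median depths were 5973 UMIs with Crh and 6007 without. Cck and Npy also met: 17 of the 60 members with Cck had Npy, and 5 of the 58 without it (9 of 34 against 3 of 40, and 8 of 26 against 2 of 18). Among members with at least 3 Vip UMIs these were 5 of 23 against 1 of 23, and 5 of 18 against 2 of 12. Median depths were 6088 UMIs with Cck and 5940.5 without, and 6827 with Npy and 5900.5 without. All 6 members with a Chat UMI had a Prox1 UMI and 0 of them had a Reln UMI, at a median depth of 8131.5 UMIs against 5940.5 in the other members. These pairs were picked after their values were seen, and nuclei of 1 library are not replicates.

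Few receptors for transmitters and peptides had enough UMIs to be compared, and some entered through their level in the members alone. Of 42 listed adrenergic, dopamine, cannabinoid and peptide receptors, 7 could be compared with Pvalb nuclei, of which 4 were higher and 1 lower, with a median log2 ratio of 3.19 and 2.98 (over all genes 4.12% were higher and 3.89% lower, with -0.04 and -0.05). With Sst nuclei 10 were compared, 5 higher and 2 lower, with a median of 1.48 and 1.67 (over all genes 2.84% and 3.14%, with -0.04 and -0.01). With Lamp5 and Ndnf nuclei 8 were compared, 2 higher and 0 lower, with 0.98 and 0.10 (over all genes 2.53% and 1.85%, with -0.05 and -0.03). Cnr1, the CB1 cannabinoid receptor that dampens release from terminals, had 556 and 318 CPM in the members. It had 82.5 and 59.7 CPM in Sst nuclei (6.74- and 5.33-fold), 49.9 and 23.1 in Pvalb nuclei (11.2- and 13.8-fold), and 278 and 204 in Lamp5 and Ndnf nuclei (2.00 and 1.56, not called). It had a UMI in 61.1% and 41.9% of thinned members.

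Grpr, the receptor of gastrin-releasing peptide, was called against all 3 classes. It reached the minimum of 20 UMIs through the members alone, so it could only be called higher. It had 40.0 CPM (20 UMIs in 18 nuclei) and 79.6 CPM (23 UMIs in 14 nuclei). Lamp5 and Ndnf nuclei had 1 and 0 UMIs, a ratio of 20.5 (3.27 to 848) in library 1 and at least 8.07-fold in library 2. Pvalb nuclei had 0 UMIs in both, at least 9.09- and 5.75-fold lower, and Sst nuclei had 8 and 2 UMIs, ratios of 4.97 (2.10 to 13.1) and 31.3 (7.74 to 274). Adra1b, the alpha-1B adrenergic receptor for noradrenaline, had 182 and 166 CPM against 30.2 and 17.8 in Sst nuclei. Hcrtr2, an orexin receptor, had 108 and 79.6 CPM against 8.05 and 10.2 in Sst nuclei, but 102 and 200 in Lamp5 and Ndnf nuclei. Npy1r, a receptor of neuropeptide Y, had 68.0 and 55.4 CPM against 3.02 and 7.62 in Sst nuclei. Oprd1, the delta opioid receptor, had 3 and 1 UMIs in the members and 80 and 33 in Pvalb nuclei, a ratio of 0.0512 (0.0103 to 0.155) and 0.0227 (0.000559 to 0.136). The receptors of Vip itself were nearly empty, with 7 and 2 Vipr1 UMIs and 0 and 1 Vipr2 UMIs.

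Acetylcholine and serotonin receptors did not move together. Chrm3, the M3 muscarinic receptor, had 944 and 903 CPM in the members, 309 and 398 in Lamp5 and Ndnf nuclei, 323 and 327 in Pvalb nuclei, and 1322 and 1746 in Sst nuclei. It was called higher than in Lamp5 and Ndnf nuclei and in Pvalb nuclei. Htr2c, a serotonin receptor, had 390 and 301 CPM against 149 and 105 in Lamp5 and Ndnf nuclei and 151 and 50.7 in Pvalb nuclei. Htr2a, another serotonin receptor, had 22.0 and 38.1 CPM against 106 and 115 in Lamp5 and Ndnf nuclei, and was lower there. Chrm2, the M2 receptor, had 82.0 and 31.1 CPM against 264 and 114 in Sst nuclei. Of the 8, 9 and 7 members of the list compared with Lamp5 and Ndnf, Sst and Pvalb nuclei, 2, 1 and 3 were higher and 1, 1 and 0 lower. Over all genes 2.53%, 2.84% and 4.12% were higher and 1.85%, 3.14% and 3.89% lower.

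Lamp5 and Ndnf nuclei are the nearest of the classes by lineage, and here 109 of 4314 genes were higher in the members (2.53%) and 80 lower (1.85%). The 10 with the largest smaller fold were Sema5b, Lama3, Plpp4, Grpr, Vwc2l, Sdk1, Synpr, Angpt1, Adam12 and Elfn1. Sema5b, a membrane semaphorin that guides axons, had 184 CPM (92 UMIs) and 180 CPM (52 UMIs) against 3 and 0 UMIs, a ratio of 31.4 (10.4 to 155) and at least 18.2-fold. Sdk1, an adhesion protein of synaptic specificity, had 894 and 1232 CPM against 80.1 and 59.2. Synpr, synaptoporin of synaptic vesicles, had 1512 and 1882 CPM against 174 and 128. Synpr was also high in Sst nuclei (1186 and 1221 CPM) and low in Pvalb nuclei (86.5 and 175 CPM). Lama3, a laminin chain, had 22 UMIs in each library against 0 and 1, but 71.8 and 59.9 CPM in Pvalb nuclei against 44.0 and 76.1 in the members.

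The lower genes were led by Reln, the secreted glycoprotein reelin, with 228 and 194 CPM in the members and 1705 and 3027 CPM in Lamp5 and Ndnf nuclei (7.48- and 15.6-fold lower). Fat1, a giant cadherin, Dock5, Myo3b, Adamtsl1, Crispld1, Ndst4, Ltbp1 and Pdlim5 followed. Myo3b, an unconventional myosin, had 11 and 1 UMIs in the members against 56 and 74. Crispld1, a secreted cysteine-rich protein, had 13 UMIs in each library against 65 and 74. Sv2c, a synaptic vesicle protein, had 74.0 and 58.8 CPM against 266 and 440, although it was higher than in Sst and Pvalb nuclei. This side of the comparison grew when members with fewer Vip UMIs were left out. With at least 3 Vip UMIs 137 of 3801 genes were lower (3.60%), 76 of them among the 80.

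Adhesion and guidance genes were nearly all compared, 76 of 77 listed against Lamp5 and Ndnf nuclei, of which 12 were higher and 3 lower, with a median log2 ratio of 0.12 and 0.53 beside -0.05 and -0.03 over all genes. Against Sst nuclei the split was 12 and 13 of 76, and against Pvalb nuclei 8 and 9 of 74. Over all genes 2.53%, 2.84% and 4.12% were higher than in Lamp5 and Ndnf, Sst and Pvalb nuclei, and 1.85%, 3.14% and 3.89% lower. Sorcs1, Sorcs3 and Sdk1 were higher than in all 3 classes and Ptprm was lower than in all 3. Sorcs3, a sorting receptor of the Vps10p family that acts at synapses, had 1802 and 1712 CPM, against 500 and 582 in Lamp5 and Ndnf nuclei, 174 and 159 in Sst nuclei and 148 and 69.2 in Pvalb nuclei. Its relative Sorcs1 had 1374 and 1578 CPM, against 450 and 322, 143 and 154, and 208 and 78.4 CPM. Ptprm, a receptor tyrosine phosphatase of cell contacts, had 420 and 363 CPM, against 1683 and 2192, 1509 and 1366, and 1155 and 1037 CPM. Erbb4, the neuregulin receptor of interneurons, had 7228 and 8922 CPM, against 2219 and 1981 CPM in Sst nuclei, 7481 and 12217 in Lamp5 and Ndnf nuclei, and 10793 and 11337 in Pvalb nuclei.

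Egfr and Kit were among the 10 genes that led over Sst nuclei. Egfr, the receptor of epidermal growth factor, had 338 and 394 CPM in the members against 7.04 and 15.2 CPM (48.0- and 25.9-fold), and Kit, the stem cell factor receptor, 218 and 159 CPM against 5.03 and 6.35 CPM (43.4- and 25.0-fold). Both were also high in Lamp5 and Ndnf nuclei, at 315 and 651 CPM for Egfr and 291 and 477 CPM for Kit. Rgs12, a regulator of G-protein signalling, had 152 and 86.5 CPM against 7.04 and 2.54, and Sema3c, a secreted semaphorin, 86.0 and 118 CPM against 7.04 and 7.62. On the lower side, Crhbp, which binds corticotropin-releasing hormone, had 2 and 0 UMIs in the members against 129 and 94 in Sst nuclei, a ratio of 0.0308 (0.00369 to 0.114) and at least 11.5-fold lower. Lypd6, a modulator of nicotinic receptors, had 3 and 4 UMIs in the members against 144 and 102, and Lama4, a laminin chain, had 2 and 3 against 102 and 104. The astrocyte carriers Slc1a2 and Slc1a3 were also called higher than in Sst nuclei, 2 of 2 compared. The 6 astrocyte markers together had 162 and 295 CPM in Sst nuclei against the 378 and 630 CPM of the members, and their part in the other results was not tested.

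Igf1, insulin-like growth factor 1, was high in the members, at 630 CPM (in 54 of 74 nuclei) and 408 CPM (in 32 of 44). It had 20.5 and 13.8 CPM in Pvalb nuclei (ratios of 30.7 and, from 3 UMIs in library 2, 29.5 with an interval of 9.86 to 145), 118 and 118 in Sst nuclei, 143 and 164 in Lamp5 and Ndnf nuclei, and 4.89 and 4.07 in excitatory nuclei. Other genes that led over Pvalb nuclei were Plpp4, a lipid phosphatase, with 72 and 38 UMIs against 2 and 0, Dennd2a, a regulator of Rab proteins, Egfem1 and Sdk2. Syt2, Cacna2d2 and Cemip were among the 10 that led on the lower side. Syt2, the calcium sensor of fast release, had 3 and 1 UMIs in the members against 115 and 42. Cacna2d2, an auxiliary calcium channel subunit, had 10 and 6 UMIs against 219 and 59, and Cemip, a hyaluronan-degrading protein, 22 and 13 against 444 and 184. Kcnc1 and Kcnc2, fast delayed-rectifier channels, had 194 and 142 against 563 and 567 CPM, and 944 and 581 against 3173 and 2845 CPM.

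Of the potassium channels, 33, 39 and 36 could be compared with Lamp5 and Ndnf, Sst and Pvalb nuclei, of which 3, 6 and 6 were higher and 1, 1 and 6 lower. Over all genes 2.53%, 2.84% and 4.12% were higher and 1.85%, 3.14% and 3.89% lower, which also stands beside the counts of the next lists. Kcnb2, a delayed rectifier, and Kcnt2, a sodium-activated channel, were higher than in each class. Kcnb2 had 1336 and 1460 CPM against 361 to 682 CPM over the 3 classes and libraries, and Kcnt2 646 and 799 CPM against 49.9 to 391 CPM. Of 20 genes of GABA synthesis, transport and receptors compared with each class, 0, 1 and 0 were higher and 1, 1 and 2 lower. Of the glutamate receptor and auxiliary subunit genes, 31, 34 and 28 could be compared with Lamp5 and Ndnf, Sst and Pvalb nuclei. Of these 5, 4 and 7 were higher and 2, 9 and 1 lower. Grik1, a kainate receptor subunit, had 784 and 512 CPM against 1947 and 1873 in Sst nuclei and 2086 and 2948 in Lamp5 and Ndnf nuclei, while Grik4, of the same family, had 296 and 394 CPM and was higher than in each class. Grm8, a presynaptic metabotropic receptor, was likewise higher, at 924 and 678 CPM against 117 to 330 CPM. Among the sodium, calcium, HCN and TRP channel genes, Trpc4 and Trpc6 were among those higher than in Lamp5 and Ndnf nuclei and Trpc5 was lower.

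**Figure D4:**
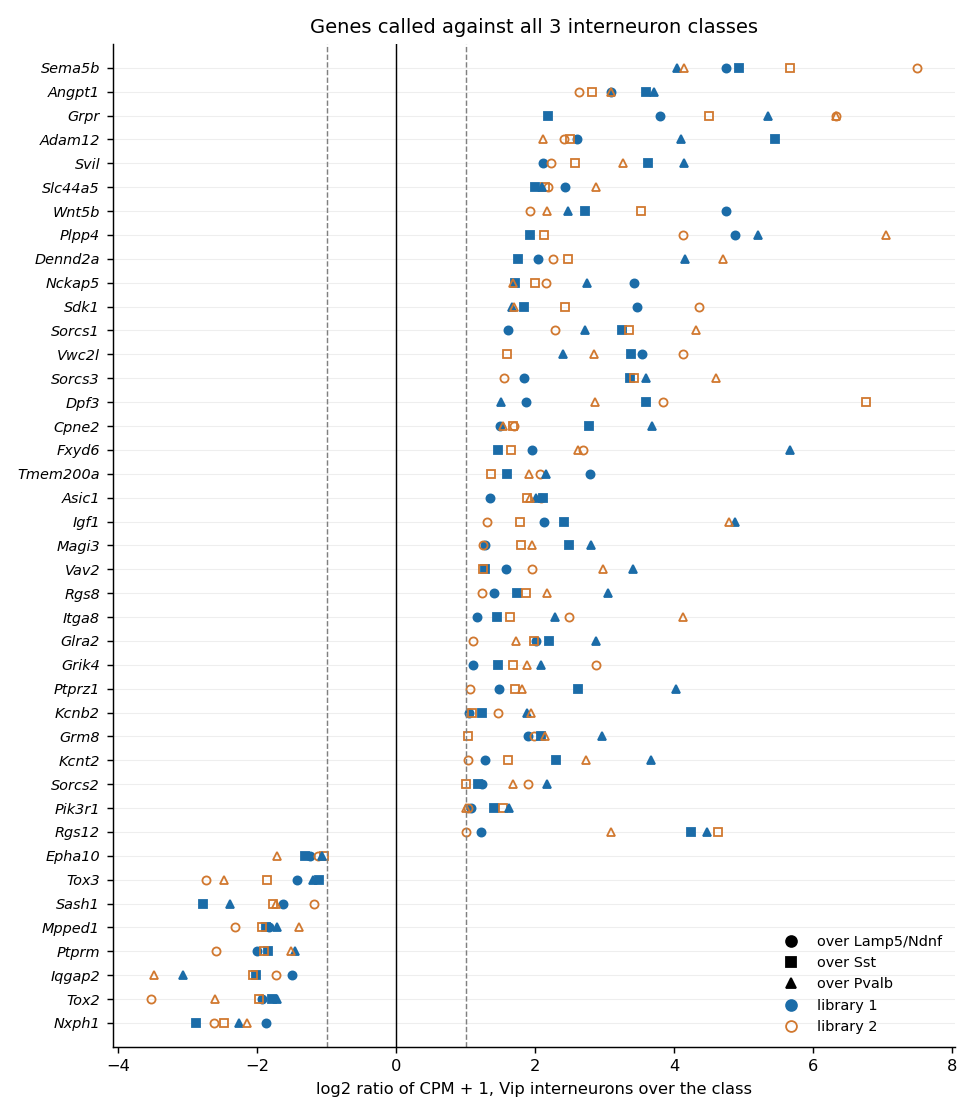
Log2 ratio of CPM plus 1 (x axis) for the genes (y axis) called in the same direction against all 3 interneuron classes, with circles for Lamp5 and Ndnf nuclei, squares for Sst nuclei and triangles for Pvalb nuclei, filled blue for library 1 and open orange for library 2. The gene model Gm42303 is not drawn. Dashed lines mark 2-fold, and Sema5b lies farthest right by its smallest ratio while Nxph1 lies farthest left.

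Of 3713 genes compared with all 3 classes, 34 were higher than in every one (0.916%) and 8 lower (0.215%). By the smallest of the 6 ratios the higher genes were led by Sema5b, Angpt1, Grpr, Adam12, Svil, Slc44a5, Wnt5b and Plpp4. Sema5b, Grpr and Angpt1 reached the minimum of 20 UMIs through the members alone, so they could only be called higher. Plpp4 did so against Pvalb nuclei. Other genes of the 34 may have entered in this way in a comparison, and their calls are then a description. The lower genes were Nxph1, Tox2, Iqgap2, Ptprm, Mpped1, Sash1, Tox3 and Epha10. Sema5b had 5.03 and 2.54 CPM in Sst nuclei, ratios of 36.6 and 70.8 (18.6 to 600) from 5 and 2 UMIs. It had 10.3 and 9.22 CPM in Pvalb nuclei, ratios of 17.9 and 19.5 (5.14 to 165) from 7 and 2 UMIs, and 36.8 and 48.3 CPM in excitatory nuclei. Angpt1, a ligand of the endothelial receptor Tie2, had 108 CPM (54 UMIs in 24 nuclei) and 86.5 CPM (25 UMIs in 14 nuclei). It had 11.7 and 13.1 CPM in Lamp5 and Ndnf nuclei, 8.05 and 11.4 in Sst nuclei, 7.33 and 9.22 in Pvalb nuclei, and 26.5 and 36.2 in excitatory nuclei. Adam12, a metalloprotease, had 218 and 163 CPM against 4.02 to 36.9, and Svil, an actin-binding protein, 172 and 142 against 8.80 to 39.1. Wnt5b, a secreted Wnt ligand, had 184 and 128 CPM against 5.86 to 32.9, and Slc44a5, a choline transporter-like protein, 770 and 754 against 101 to 192. For each of these the members of both libraries lay above every library of the 3 classes. They were picked by their smallest ratio among called genes, so this order is a description.

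Nxph1, a secreted ligand of alpha-neurexins found in many interneurons, had 444 and 578 CPM in the members. It had 1624 and 3553 CPM in Lamp5 and Ndnf nuclei, 3277 and 3228 in Sst nuclei, and 2132 and 2563 in Pvalb nuclei, so the members were 3.66- to 7.38-fold lower over the 6 ratios. Tox2 had 14 and 5 UMIs in the members (28.0 and 17.3 CPM) against 71.2 to 210 CPM in the classes, and Tox3 100 and 55.4 CPM against 203 to 375. With at least 3 Vip UMIs the counts against all 3 classes were 43 higher and 15 lower of 3183, among them 32 of the 34 and 7 of the 8. With at least 2 Pvalb UMIs they were 33 and 5 of 2698, among them 29 of the 34 and 5 of the 8, of which 5 could still be compared.

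**Figure D5:**
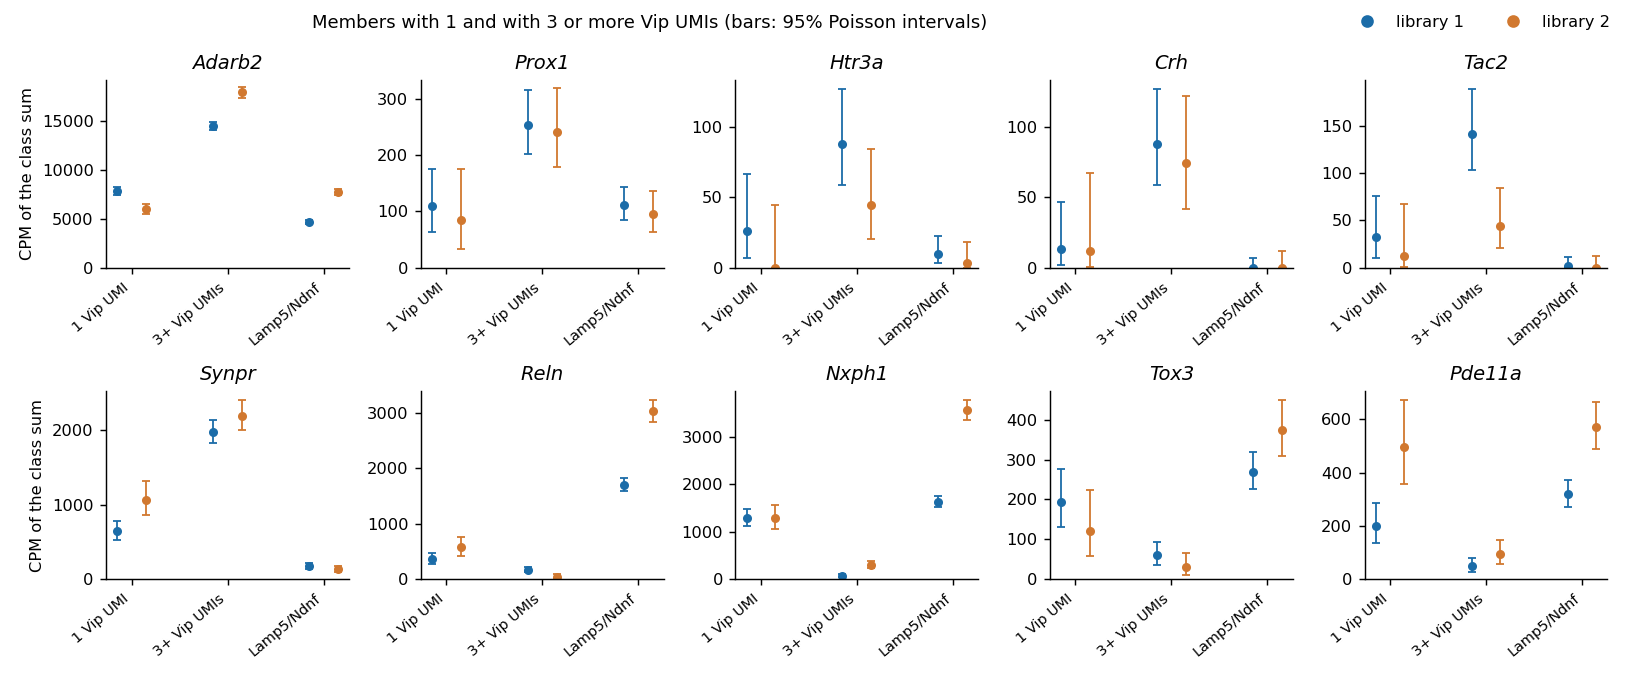
CPM of 10 genes (y axes, linear, each with its own range) in members with 1 Vip UMI, members with at least 3 Vip UMIs and Lamp5 and Ndnf nuclei (x axis), library 1 in blue and library 2 in orange, with exact 95% Poisson intervals of counting error. Adarb2, Prox1, Crh, Tac2 and Synpr are higher in the members with at least 3 Vip UMIs, and Reln, Nxph1, Tox3 and Pde11a in those with 1.

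The members differed among themselves with their Vip count. The 24 and 13 members with 1 Vip UMI had 7840 and 5994 CPM of Adarb2, and the 46 and 30 with at least 3 had 14486 and 17929. Prox1 was 110 and 84.8 CPM against 254 and 242, Synpr 641 and 1066 against 1978 and 2193, and Chrm3 363 and 436 against 1196 and 1087. Crh had 2 and 1 UMIs in the members with 1 Vip UMI and 28 and 15 in those with at least 3, and Wnt5b 9 and 0 against 79 and 37. Elfn1, whose level was highest in Sst nuclei, was 45.3 and 24.2 against 148 and 133 CPM. Other genes, picked after their values were seen, were lower in the members with more Vip UMIs. Reln was 369 and 569 CPM in the members with 1 Vip UMI against 163 and 44.5 in those with at least 3, and Nxph1 1282 and 1284 against 69.1 and 301. Tox3 was 194 and 121 against 59.6 and 29.6 CPM, and Pde11a, a phosphodiesterase and Lamp5 marker, 201 and 496 against 47.1 and 93.8 CPM. In library 2, 18 of the 22 Sox6 UMIs lay in members with 1 Vip UMI.

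Lamp5 and Ndnf together reached 2 UMIs in 5 members of library 1 and 3 of library 2. Of these, 4 of 24 and 3 of 13 were members with 1 Vip UMI, and 1 of 46 and 0 of 30 were members with at least 3. Median depths of the members with 1 and with at least 3 Vip UMIs were 6161 and 5968 UMIs in library 1, and 5752 and 5751.5 in library 2, which lie close together within each library. The part of free Vip RNA in these differences was not tested. Of all Nxph1 UMIs of the members, 198 of 222 in library 1 and 106 of 167 in library 2 lay in members with 1 Vip UMI. For Reln these were 57 of 114 and 47 of 56.

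Immediate early genes, which mark recent activity, and the connexins and NAD enzymes that the title of the series points to were scarce in the members. Of 18 listed immediate early genes, 3, 4 and 1 could be compared with Lamp5 and Ndnf, Sst and Pvalb nuclei, and 0 were called. Of 24 connexins and NAD enzymes, 2, 6 and 1 could be compared and 0 were called. At this depth a difference in most of these genes was not detectable.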

How the data were processed

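Nuclei of frozen cortex were profiled with the 10x Genomics Chromium method, per the labels' protocols. The deposited matrix holds raw UMI counts of 30905 genes in 17501 barcodes, per the file headers. Its header names Cell Ranger 3.1.0, while Cell Ranger 2.0.1, Seurat 3.1, R 4.0.2 and the build mm10 stand in the submitters' processing notes. The difference was not settled, and neither the annotation nor the treatment of introns and strand is given in the sources used here. If introns were counted, long genes gain counts, so levels were compared between classes and not between genes.

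Counts were summed per class and library and given as CPM (Python 3.11.15, numpy 2.4.6, scipy 1.17.1, pandas 2.3.3), with exact 95% Poisson intervals for CPM, exact conditional intervals for ratios and Clopper-Pearson intervals for shares. Where a class had 0 UMIs a floor of 3 UMIs per library was used. Genes needed 20 UMIs in the compared classes of each library, and a call needed 2-fold with 1 CPM added. The comparison rules kept the mitochondrial, Gad1 and Gad2 and Slc17a7 limits. Lamp5 and Ndnf nuclei had at most 2 Sst, at least 2 Adarb2, 0 Vip and at least 2 Lamp5 and Ndnf UMIs. Sst nuclei had at least 3 Sst, at most 1 Adarb2 and 0 Vip UMIs. Pvalb nuclei had at most 2 Sst, at most 1 Adarb2, 0 Vip and at least 1 Pvalb UMI. Excitatory nuclei had at least 3 Slc17a7 and 0 Gad1 and Gad2 UMIs.

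Scrublet in scanpy 1.11.5 marked 0 and 2 barcodes as doublets and so had not worked, and no barcode was removed in the values reported. A score of 0.2 or more was held by 0 and 2 members and served as an alternative. Library totals, intervals and shares cover counting error only, and UMIs of 1 nucleus or 3 pooled mice are not replicates.

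The genes named are the 10 called genes with the largest and the 10 with the lowest ratio per comparison, ranked by the smaller size of the libraries, and in 20 gene lists the called members and the 4 with the highest CPM. Other genes were chosen after their values were seen, and a few members of the lists are not reported here. The members and lists were chosen with earlier results of these data known. Positions are from GENCODE vM21 (mm10). The calculations were tested on simulated data, and the alternatives are given in the closing section.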

Additional observations from a re-analysis of the deposited data

How the results depend on the processing

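The share of members was 1.30% of library 1 with a mitochondrial limit of 1%. It was 0.582% and 0.375% with at least 2 Vip UMIs, 0.536% and 0.363% with at least 3, and 0.443% and 0.314% with 0 Slc17a7 UMIs. Genes lower than in Lamp5 and Ndnf nuclei numbered 138 of 3824 compared with at least 2 Vip UMIs (3.61%) and 137 of 3801 with at least 3 (3.60%). In the main setting they were 80 of 4314 (1.85%). With a minimum of 50 UMIs, 66 of 1988 genes were higher (3.32%) and 48 lower (2.41%) than in Lamp5 and Ndnf nuclei. Then 106 of 3247 were higher than in Sst nuclei (3.26%). For Pvalb nuclei 88 of 1725 were higher (5.10%) and 79 lower (4.58%). With no minimum 30896 genes were compared, since genes of a few UMIs then enter. Higher and lower were 676 (2.19%) and 593 (1.92%) for Lamp5 and Ndnf nuclei, and 608 (1.97%) and 1069 (3.46%) for Sst nuclei. For Pvalb nuclei they were 924 (2.99%) and 803 (2.60%). Counts and shares thus did not move together. Thinned to 3000 UMIs, 104 were higher and 94 lower than in Pvalb nuclei, and with at least 2 Pvalb UMIs 208 were higher and 90 lower of 2703 compared. Genes lower than in all 3 classes numbered 15 of 3183 with at least 3 Vip UMIs and 5 of 2698 with at least 2 Pvalb UMIs, beside 8 of 3713. Without thinning, the shares with a UMI were 45.9% and 59.1% for Cck, 20.5% for Tac2 in library 2, 77.0% and 61.4% for Cnr1, and 70.3% and 63.6% for Prox1. For changes other than those of the minimum and the thinning the cause was not tested. The levels of chosen genes in each library gave 76 values. Leaving out members by doublet score kept 76 within their intervals, but it removed 0 members of library 1 and 2 of library 2. The values of library 1 could therefore not change. Leaving out those with Lamp5 or Ndnf UMIs kept 67, weighting nuclei equally 70, and asking for at least 3 Vip UMIs 44, with 23 higher and 9 lower. The rule genes Vip and Adarb2 are among the chosen genes, and Vip was bound to rise under the last limit. The alternatives that left out members with Lamp5 or Ndnf UMIs, that asked for at least 2 Pvalb UMIs, and that asked for at least 3 Vip UMIs in the counts against all 3 classes were chosen after the data were seen. No paired analysis was possible because each age is 1 pooled sample and no label ties a library to an age.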

Other observations

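The limit on Gad1 and Gad2 left out nuclei that passed every other limit of the rule. With at most 1 UMI of the pair and at least 3 Vip UMIs, all other limits kept, there were 12 nuclei in library 1 and 19 in library 2. They had 13278 and 18043 CPM of Adarb2, against 14486 and 17929 CPM in the members with at least 3 Vip UMIs. Adarb2 is a gene of the rule, which chose both sets. Prox1 had 236 and 184 CPM (254 and 242 in those members) and Dlx6os1 550 and 511 (788 and 593). Sema5b had 393 and 168 CPM (223 and 188) and Tac2 220 and 55.9 CPM (141 and 44.5). Crh had 141 and 40.0 CPM (87.9 and 74.1) and Grpr 78.6 and 32.0 CPM (50.2 and 88.9). Both were thus higher than in those members in library 1 and lower in library 2. These nuclei were chosen after the values were seen, and enter no other count.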
